A study of Rattus norvegicus with 18 samples.

Results

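The contractile smooth muscle and sarcomere genes described here are 10 genes taken by symbol from the gene table: the muscle actins Acta1, Acta2 and Actc1, the actin regulators Tagln, Cnn1 and Lmod1, the regulatory light chain Myl9, the tropomyosins Tpm1 and Tpm2, and the troponin Tnnt2. All 10 symbols were found, each on 1 row, among 32545 genes. RNA was measured in 18 libraries of H9C2, an established line derived from embryonic rat heart, in a series on how microsecond pulsed electric fields act on heart muscle cells. NC cells had no treatment. ES10 and ES50 cells received 10 or 50 pulses, each lasting 100 µs, in a field of 1500 V/cm. The P group was treated for 48 h with 50 µmol/L PE, an abbreviation the labels do not expand, and P-ES10 and P-ES50 cells had the same PE as well as 10 or 50 of those pulses. Each group holds 3 libraries, and the labels name no genetic change in any of them. The labels give the libraries of a group a number only, so the p-values measure the spread between these libraries, which may be technical.

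Contractile force in muscle comes from myosin pulling on actin filaments, and the genes for these filaments exist in muscle and non-muscle copies. Smooth muscle filaments are regulated through phosphorylation of the myosin light chain and through calponin and transgelin, whereas the striated sarcomere is regulated through troponin and tropomyosin. Many of these genes carry a CArG box, the site of serum response factor (SRF), which acts with cofactors of the myocardin family. Smooth muscle genes are also active in embryonic heart muscle, in cultured myoblasts and in myofibroblasts.

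The promoters of the 3 muscle actins are shown because the genes encode nearly the same protein and had very unequal levels in these cells. The 150 bases before the RefSeq start site are printed 5′ to 3′ on the gene's strand (build GRCr8, minus strand for each), with CArG boxes in capitals, counting those with 1 substitution among the inner bases.
Acta2, chr1:241172504-241172653: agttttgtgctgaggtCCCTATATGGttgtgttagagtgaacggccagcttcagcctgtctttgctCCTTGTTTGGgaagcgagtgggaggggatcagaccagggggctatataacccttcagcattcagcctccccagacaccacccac
Acta1, chr19:68784195-68784344: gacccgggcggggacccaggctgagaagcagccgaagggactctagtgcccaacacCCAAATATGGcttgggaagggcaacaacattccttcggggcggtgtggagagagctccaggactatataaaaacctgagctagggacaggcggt
Actc1, chr3:121271828-121271977: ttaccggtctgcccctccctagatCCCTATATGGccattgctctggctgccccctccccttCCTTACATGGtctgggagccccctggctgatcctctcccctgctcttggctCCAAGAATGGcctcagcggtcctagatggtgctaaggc

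A CArG box is CC, then 6 bases of A or T, then GG, and it reads alike on both strands. Within 250 bases before to 50 bases after the start, Acta1 held 1 exact box, CCAAATATGG at -94, 2 with 1 substitution before the printed stretch, at -222 and -171, and the MCAT motif CATTCC at -67. Acta2 held no exact box, 2 with 1 substitution, CCCTATATGG at -134 and CCTTGTTTGG at -84, and an MCAT motif before the printed stretch, GGAATG at -196. Actc1 held 3 with 1 substitution in the printed stretch and an exact one, CCAAATAAGG, just past the RefSeq start. The letters TATAA stood at -29 in Acta1 and -40 in Acta2 but were not found in the Actc1 window. All positions rest on the RefSeq start, which was not checked otherwise. An exact box was present in 1.64% of 33469 rat promoters of this length, an exact or 1-substitution box in 9.42%, and the MCAT motif, searched on both strands, in 14.2%. Of the other members with a promoter entry, Tpm1 and 1 of the windows of Tnnt2 held an MCAT motif, Tpm2 and Cnn1 neither motif, and no box overlapped an MCAT motif. A match describes letters only, not a bound site.

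Levels are FPKM, the deposited reads per gene per length and library, scaled so that the median gene is equal between libraries. Libraries held 14004929 to 17247201 reads. Mitochondrial genes took 92.1% ± 0.728 of them in ES50 (SD, n = 3), 48.6% ± 1.66 in P-ES50, 12.9% ± 1.21 in NC, 9.44% ± 0.319 in ES10, 6.46% ± 0.377 in P-ES10 and 5.48% ± 0.104 in P. The ES50 libraries therefore held only 1230554 to 1466851 reads on nuclear genes, and the other libraries at least 7813779. Differences are given on the log2(FPKM + 1) scale, which understates the change of low genes, with the standard error (SE) and an adjusted p from limma over 11917 genes tested. A gene was called where that p was under 0.05. Actc1 stayed below the filter on low values, so 9 of the 10 members were tested. In bulk RNA, fewer cells expressing a gene and less of its RNA per cell cannot be told apart.

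The labels give the cell type as myocardium. Defining cardiomyocyte genes were near 0: in NC, mean FPKM was 0.0115 for Myh6, 0.0021 for Myh7 and 0 for Myl2, and the summed FPKM of the 10 cardiomyocyte markers was 3.18 to 4.51, most of it from Tnni3 (2.18) and Pln (1.64). Of the skeletal muscle markers, Myod1, a regulator of skeletal muscle identity, stood at 32.0 FPKM in NC and Des at 9.10. The others were low there, with Myog at 0.951, Myh3 at 0.545, Chrna1 at 0.216, Ckm at 0.0926, Myf5 at 0.0071 and Pax7 at 0. Of the smooth muscle markers, Actg2 stood at 333 FPKM and Myocd at 5.76, but Myh11, the smooth muscle myosin heavy chain, at 1.57 and Kcnmb1 near 0. The 5 macrophage markers summed to 1.52 to 1.83 FPKM in NC and 3.03 to 3.23 in ES10, mostly from Cd68 (0.934 in NC) and Csf1r (0.669 in NC, 1.79 in ES10), while Ptprc and Adgre1 were at 0 in every library. The 4 endothelial markers summed to 0.677 to 0.84 in NC, mostly Vwf (0.548), with Cdh5 at 0 in every library.

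Acta2, the smooth muscle alpha-actin, was the most abundant member (chromosome 1, 252537615 to 252550394, minus strand, build Rnor 6.0, as are the positions that follow). Its FPKM was 1475, 1387 and 1344 in the NC libraries, 1446, 1457 and 1369 in ES10, and 3630, 3512 and 3482 in ES50. With PE it was 1511, 1432 and 1467 in P, 1518, 1505 and 1503 in P-ES10, and 1898, 1848 and 1855 in P-ES50. Only the groups with 50 pulses stood apart from their control, and NC, ES10, P and P-ES10 lay within 1344 to 1518. Among nuclear genes Acta2 ranked between 7 and 12 in every library.

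Acta1, the skeletal muscle alpha-actin (chromosome 19, 56674074 to 56677084), was over 100 times lower. Its FPKM was 10.4, 8.87 and 9.54 in NC, 9.96, 9.94 and 10.6 in ES10, and 14.7, 14.5 and 18.4 in ES50. It was 4.90, 4.22 and 4.83 in P, 7.30, 7.37 and 7.44 in P-ES10, and 6.49, 6.45 and 5.29 in P-ES50. All 3 P libraries lay below all other libraries, and the P-ES10 libraries lay between P and NC without overlapping either. Acta1 had 47 to 62 reads per library in ES50, so its level there is the least precise of its 6.

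Actc1, the cardiac alpha-actin (chromosome 3, 105507403 to 105512939), had between 0 and 3 reads per library, and its highest FPKM was 0.0879. A library without a read allows up to 3 reads, which is 0.073 to 0.0888 FPKM in NC, ES10, P and P-ES10, 0.134 to 0.139 in P-ES50 and 0.765 to 0.908 in ES50; this covers counting error only. Actin genes are nearly alike in their coding parts, and how reads that fit several of them were counted is not given in the sources used here, so low levels of 1 actin beside a high one are uncertain.

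**Figure D1:**
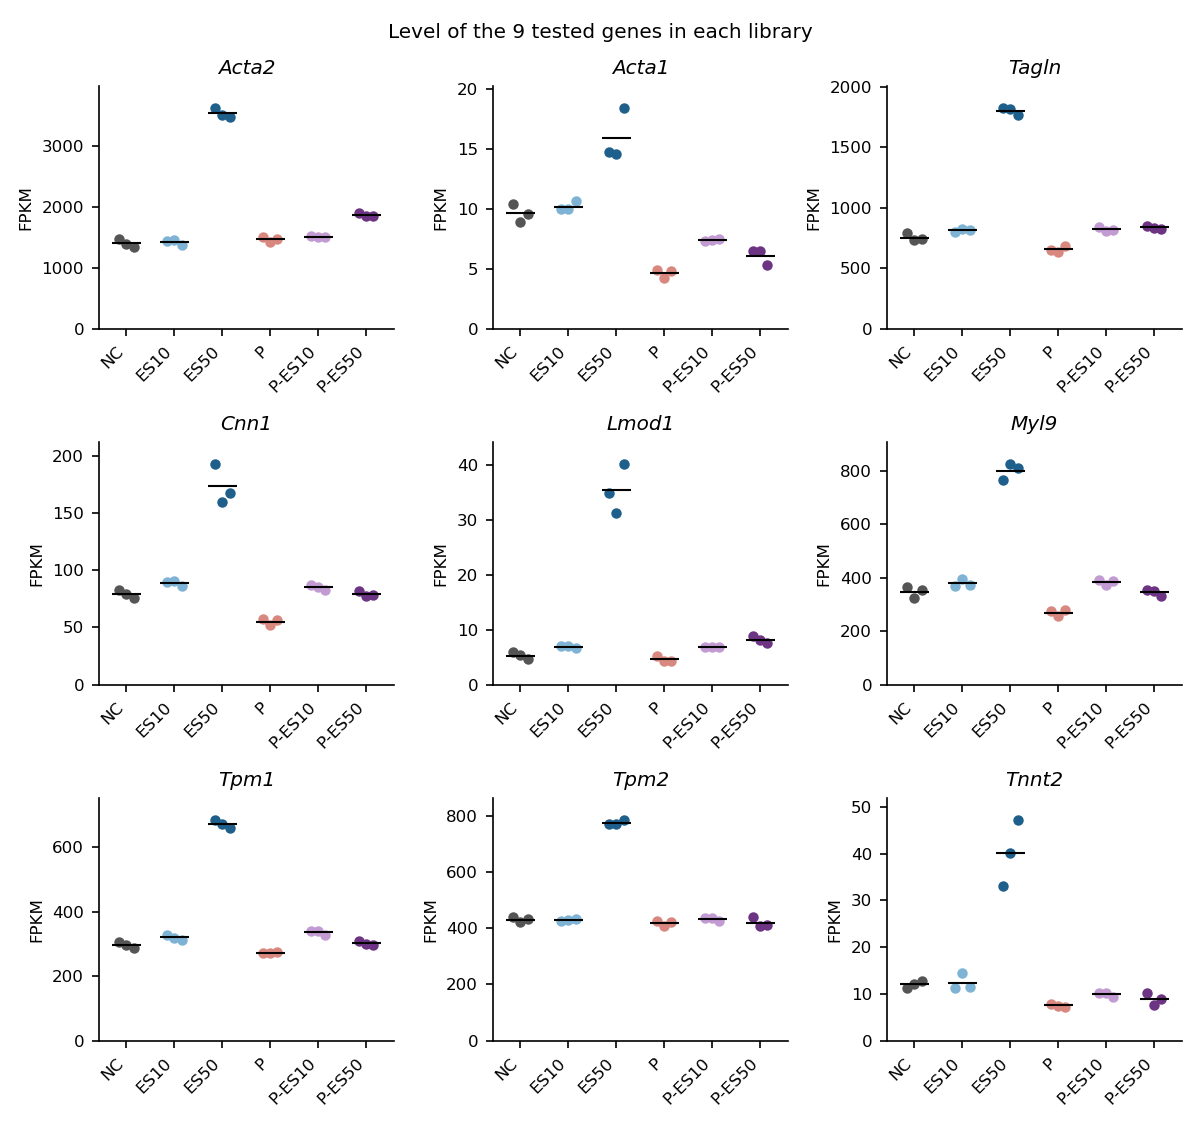
FPKM of the 9 tested genes in each library (vertical axes, linear from 0, a scale of its own for each gene) by group (horizontal axis). Points are libraries and lines are means of 3. In all 9 panels the ES50 libraries lie highest, and for Acta1, Cnn1, Myl9, Tagln, Tpm1 and Tnnt2 the P libraries lie below NC; where ES50 lies depends on the scaling, and with total reads as the reference it lies below NC.

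Tagln (chromosome 8, 50222896 to 50231357), which encodes the actin cross-linking protein transgelin, had an FPKM of 789, 731 and 737 in NC, 799, 824 and 816 in ES10, and 1822, 1814 and 1767 in ES50. In P it was 648, 636 and 679, in P-ES10 842, 807 and 816, and in P-ES50 847, 835 and 826. The P libraries were the lowest of the 18, and no P library overlapped an NC or a P-ES10 library.

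Cnn1 (chromosome 8, 23113048 to 23121761) encodes calponin, which binds actin and slows the myosin motor. Its FPKM was 82.9, 78.8 and 75.4 in NC, 89.4, 90.2 and 86.2 in ES10, and 193, 160 and 168 in ES50. In P it was 56.9, 52.0 and 56.5, in P-ES10 87.4, 85.6 and 83.0, and in P-ES50 81.6, 77.3 and 78.1. Thus the P libraries again stood lowest, and P-ES10 and P-ES50 returned values within or just above the NC range.

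Lmod1 (chromosome 13, 52147555 to 52190228), leiomodin, which starts new actin filaments in smooth muscle, was low. Its FPKM was 5.89, 5.30 and 4.66 in NC, 7.04, 7.01 and 6.65 in ES10, and 34.9, 31.2 and 40.2 in ES50. In P it was 5.16, 4.29 and 4.31, in P-ES10 6.93, 6.92 and 6.85, and in P-ES50 8.84, 8.05 and 7.57. NC and P overlapped, and each pulse group lay above its own control.

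Myl9 (chromosome 3, 152857592 to 152863960), the regulatory light chain of smooth muscle myosin, had an FPKM of 365, 322 and 352 in NC, 367, 395 and 373 in ES10, and 765, 825 and 808 in ES50. In P it was 274, 255 and 277, in P-ES10 390, 374 and 387, and in P-ES50 352, 351 and 331. P lay below the other groups without overlap, and P-ES50 lay within the NC range.

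Tpm1 (chromosome 8, 72814740 to 72842228) and Tpm2 (chromosome 5, 59016622 to 59025631) encode tropomyosins, which lie along the actin filament and gate myosin binding. Tpm1 was at 306, 296 and 286 FPKM in NC, 329, 319 and 312 in ES10, 684, 673 and 660 in ES50, 272, 273 and 274 in P, 340, 339 and 328 in P-ES10, and 310, 301 and 298 in P-ES50. Tpm2 was at 439, 422 and 432 in NC, 428, 428 and 432 in ES10, 773, 770.5 and 786 in ES50, 427, 409 and 423 in P, 437, 438 and 426 in P-ES10, and 442, 408 and 412 in P-ES50. For Tpm1 the P libraries were again lowest, whereas Tpm2 lay between 408 and 442 in all 15 libraries outside ES50.

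Tnnt2 (chromosome 13, 52662996 to 52680990), cardiac troponin T, which anchors troponin to tropomyosin and is also made in immature skeletal muscle, had an FPKM of 11.3, 12.2 and 12.7 in NC, 11.2, 14.4 and 11.6 in ES10, and 33.2, 40.2 and 47.2 in ES50. In P it was 7.93, 7.38 and 7.23, in P-ES10 10.1, 10.3 and 9.28, and in P-ES50 10.2, 7.55 and 8.88. P and P-ES10 both lay below NC without overlap, and P-ES50 overlapped P. Tnnt2 had 89 to 134 reads per library in ES50. By mean FPKM the order in NC was Acta2, Tagln, Tpm2, Myl9, Tpm1, Cnn1, Tnnt2, Acta1, Lmod1 and Actc1, and no neighbours in that order overlapped in their NC libraries.

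PE alone was followed by lower levels of most members. Acta1 fell by 0.91 ± 0.09 on the log2 scale (SE, limma adjusted p = 2.53e-05), Tnnt2 by 0.62 ± 0.12 (adjusted p = 0.0047), Cnn1 by 0.51 ± 0.06 (adjusted p = 7.89e-05), Myl9 by 0.36 ± 0.05 (adjusted p = 0.000255), Tagln by 0.20 ± 0.03 (adjusted p = 0.00126) and Tpm1 by 0.12 ± 0.03 (adjusted p = 0.0267). In all, 6 of the 9 tested members were lower and 0 higher in P than in NC. Of all genes tested, 4.81% were called lower and 4.72% higher. The median change was -0.20 over the members and 0.004 over all genes tested. The other 3 members were not called: Acta2 differed by 0.07 ± 0.03 (adjusted p = 0.254), Tpm2 by -0.04 ± 0.03 (adjusted p = 0.526) and Lmod1 by -0.17 ± 0.09 (adjusted p = 0.32). The members and gene lists were chosen with earlier results of these data known. Here and below, the share over all genes is therefore a reference and not an independent test. With libraries scaled to total reads or by quantiles, 4 members were lower (Acta1, Tnnt2, Cnn1 and Myl9) and Acta2 was called higher. Of all genes tested, 558 were then called lower and 2431 higher with total reads, and 779 and 732 with quantiles. The call of Tpm1 was lost when any 1 of the P libraries or NC replicate 1 or 2 was left out (adjusted p 0.0611 to 0.131).

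After PE, 10 pulses were followed by higher levels of 7 of the 9 members and lower levels of 0, while 13.2% of all genes tested were called higher and 9.66% lower. Cnn1 was higher by 0.62 ± 0.06 (limma adjusted p = 2.65e-06), Acta1 by 0.57 ± 0.09 (adjusted p = 0.000393), Myl9 by 0.51 ± 0.05 (adjusted p = 2.41e-06), Lmod1 by 0.50 ± 0.09 (adjusted p = 0.00126), Tagln by 0.33 ± 0.03 (adjusted p = 4.03e-06), Tpm1 by 0.30 ± 0.03 (adjusted p = 5.11e-06) and Tnnt2 by 0.36 ± 0.12 (adjusted p = 0.0465). Acta2 (0.04 ± 0.03, adjusted p = 0.5) and Tpm2 (0.05 ± 0.03, adjusted p = 0.301) were not called. The median change was 0.36 over the members and 0 over all genes tested. P versus NC and P-ES10 versus P share the 3 P libraries, so the opposite signs of Acta1, Cnn1, Myl9, Tagln, Tpm1 and Tnnt2 in them are not independent; set beside NC, mean FPKM in P-ES10 was 85.3 ± 2.25 against 79.1 ± 3.76 for Cnn1 and 7.37 ± 0.0706 against 9.60 ± 0.768 for Acta1 (SD, n = 3). Leaving out any 1 of the 6 libraries ended the call of Tnnt2 (adjusted p 0.0678 to 0.13), and quantile scaling called Tpm2 lower.

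Without PE, the changes after 10 pulses ranged from -0.005 for Tpm2 to 0.33 for Lmod1. Lmod1 was higher by 0.33 ± 0.09 (limma adjusted p = 0.0408), Tpm1 by 0.11 ± 0.03 (adjusted p = 0.033) and Tagln by 0.11 ± 0.03 (adjusted p = 0.047), so that 3 of 9 members were called higher and 0 lower, against 6.36% and 2.21% of all genes tested. Cnn1 (0.16 ± 0.06, adjusted p = 0.12) and Myl9 (0.13 ± 0.05, adjusted p = 0.133) did not overlap with NC but were not called. When 1 library was left out, the changes stayed at 0.26 to 0.40 for Lmod1, 0.09 to 0.14 for Tpm1 and 0.09 to 0.15 for Tagln, but 0 to 3 members were called, with 0 without NC replicate 2 or 3 or ES10 replicate 1 or 2 and 1 (Tpm1) without ES10 replicate 3. Scaling to nuclear reads left 0 called higher and Tpm2 called lower, beside 356 and 620 of all genes tested. With the replicate number as a block in the fit, the call of Tagln was lost.

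The response to 10 pulses differed between cells with and without PE for Cnn1 (0.46 ± 0.08 more with PE, limma adjusted p = 0.0144), Myl9 (0.38 ± 0.07, adjusted p = 0.013) and Tagln (0.22 ± 0.05, adjusted p = 0.0392). These 3 of 9 members were called higher in that interaction and 0 lower, beside 0.562% and 0.344% of all genes tested. For Acta1 the difference was 0.49 ± 0.13 (adjusted p = 0.129), for Tpm1 0.18 ± 0.04 (adjusted p = 0.0652) and for Tnnt2 0.33 ± 0.17 (adjusted p = 0.688). In a limma fit without the 3 ES50 libraries, an alternative chosen after seeing the data, Acta1 (adjusted p = 0.0184) and Tpm1 (adjusted p = 0.0246) were also called, which gave 5. That fit called 275 higher and 286 lower over all genes tested. Only Myl9 remained called without NC replicate 1, ES10 replicate 3 or P-ES10 replicate 1. Among the fits that leave out 1 library, Tagln was called only without NC replicate 2 or P replicate 3. After 10 pulses, mean FPKM was 88.6 in ES10 and 85.3 in P-ES10 for Cnn1, 378 and 384 for Myl9, and 813 and 822 for Tagln. The interaction shares the NC and P libraries with P versus NC, where these genes were lower in P, so these results are not independent.

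**Figure D2:**
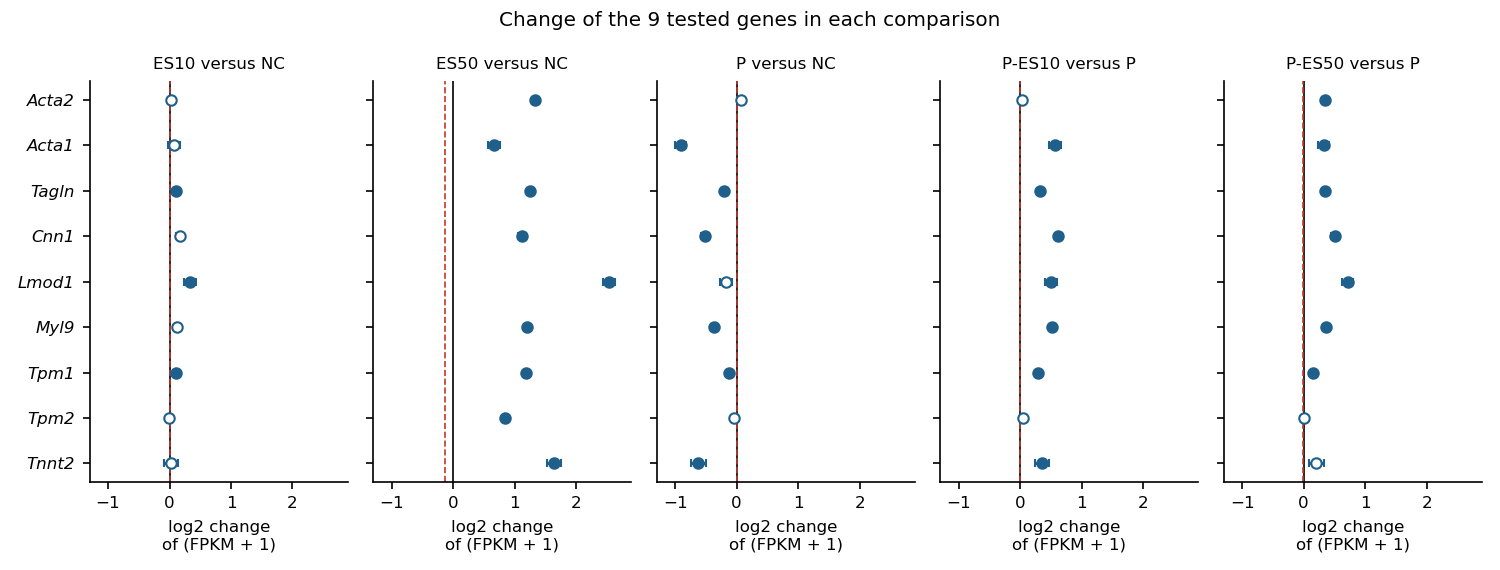
Change in log2(FPKM + 1) of the 9 tested genes (horizontal axes) in 5 comparisons. Points are limma estimates with SE bars, filled where called and open where not, the solid line marks 0 and the dashed line the median of all genes tested. P versus NC lies at or left of 0 for all but Acta2, and P-ES10 versus P lies right of 0 for 7 called genes; the positions for the groups with 50 pulses depend on the scaling.

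After 50 pulses without PE, all 9 tested members stood higher relative to the median gene. In ES50 versus NC, Lmod1 was higher by 2.53 ± 0.09 (limma adjusted p = 2.14e-12), Tnnt2 by 1.64 ± 0.12 (adjusted p = 6.8e-09), Acta2 by 1.34 ± 0.03 (adjusted p = 2.99e-14), Tagln by 1.26 ± 0.03, Myl9 by 1.21 ± 0.05, Tpm1 by 1.18 ± 0.03, Cnn1 by 1.12 ± 0.06, Tpm2 by 0.85 ± 0.03 and Acta1 by 0.67 ± 0.09 (adjusted p = 1.02e-05). Thus 9 of 9 tested members were called higher and 0 lower, while 31.9% of all genes tested were called higher and 40.1% lower, with a median of 1.21 over the members and -0.127 over all genes. The members took 2.12% ± 0.0328 of the reads on nuclear genes in ES50 and 0.948% ± 0.0328 in NC (SD, n = 3; exact two-sided permutation p = 0.1, the smallest that 3 against 3 allows). The direction rests on the reference: with mitochondrial reads counted in, the median of all genes moved to -2.43 and every member was lower than in NC, from -0.69 for Lmod1 to -2.69 for Tpm2, of which only Tpm2 lay below that median. Quantile scaling called 6 members higher and 2 lower (Acta2 at -0.24 and Tpm2 at -0.19).

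After PE, 50 pulses gave smaller differences. Lmod1 was higher in P-ES50 than in P by 0.71 ± 0.09 (limma adjusted p = 5.07e-05), Cnn1 by 0.51 ± 0.06 (adjusted p = 1.54e-05), Myl9 by 0.36 ± 0.05 (adjusted p = 6.36e-05), Tagln by 0.35 ± 0.03 (adjusted p = 1.6e-06), Acta2 by 0.34 ± 0.03 (adjusted p = 3.47e-06), Acta1 by 0.32 ± 0.09 (adjusted p = 0.0173) and Tpm1 by 0.15 ± 0.03 (adjusted p = 0.00194). Tnnt2 (0.20 ± 0.12, adjusted p = 0.239) and Tpm2 (0.003 ± 0.03, adjusted p = 0.952) were not called. So 7 of 9 members were called higher and 0 lower, beside 14.1% and 14.2% of all genes tested, with a median of 0.34 over the members and -0.007 over all genes. Scaled to total reads, where the median gene lay at -0.77, 8 members were called lower, and quantile scaling called 3 higher and 4 lower. Acta1 was not called without P replicate 2 or P-ES50 replicate 1 or 2 (adjusted p 0.0667 to 0.0827).

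Relative to the median gene, all 9 members responded less to 50 pulses with PE than without it, from a difference of -1.82 ± 0.13 for Lmod1 (limma adjusted p = 1.72e-08) and -1.44 ± 0.17 for Tnnt2 (adjusted p = 3.43e-06) to -0.34 ± 0.13 for Acta1 (adjusted p = 0.035). The interaction was called lower for 9 and higher for 0, while 27.9% of all genes tested were called lower and 31.1% higher. The share of mitochondrial reads moved in the same order, 92.1% in ES50 and 48.6% in P-ES50, and its part in the result was not tested. With total reads as the reference the sign of the difference turned for every member (0.63 to 1.99), around a median gene at 1.65, and quantile scaling left 4 members called. Acta1 was not called without NC replicate 2 or 3, ES50 replicate 3, P replicate 1 or 3, or P-ES50 replicate 3 (adjusted p 0.0602 to 0.0969).

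**Figure D3:**
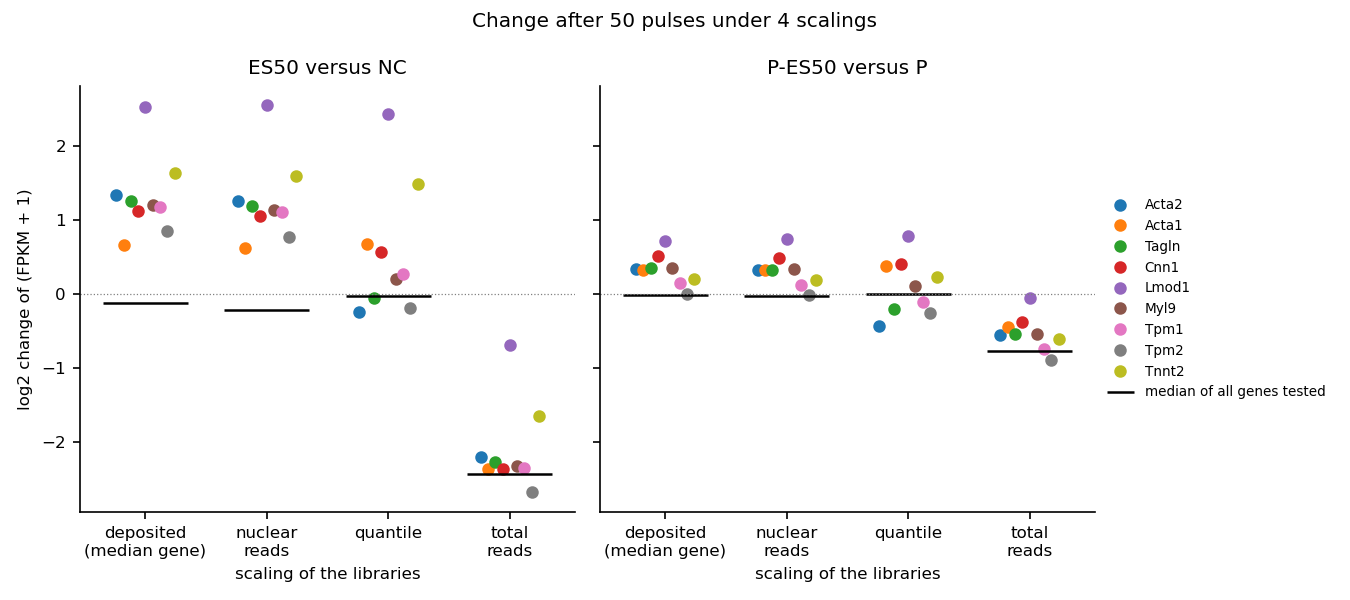
Change in log2(FPKM + 1) of the 9 tested genes (vertical axis) after 50 pulses, without PE on the left and with PE on the right, under 4 scalings of the libraries (horizontal axis). Points are genes and black lines the median of all genes tested; with total reads as the reference every point lies below 0, and only Tpm2 lies below the black line in both panels.

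A share within a gene family does not move when a library is scaled by 1 factor (quantile scaling is not of that kind). In 5 families, genes counted here as muscle (all members but Lmod1 and Tnnt2) were therefore set against paralogs counted as non-muscle. The split is by gene, and FPKM per gene does not separate the transcripts of a gene. The tropomyosin share is thus that of the genes Tpm1 and Tpm2 against Tpm3 and Tpm4, not of muscle transcripts. The muscle part of the actins (Acta1, Acta2, Actc1 and Actg2 against Actb and Actg1, the cytoplasmic actins) was 49.8% ± 0.746 of the family's FPKM in NC, 54.7% ± 0.573 in ES10 and 50.5% ± 0.674 in ES50 (SD, n = 3). With PE it was 45.1% ± 0.801 in P, 53.0% ± 0.805 in P-ES10 and 51.7% ± 0.935 in P-ES50. It was thus lowest in P, and 10 pulses were followed by a higher share both with and without PE, with no overlap between the groups compared. In ES10 versus NC, Acta2 (0.02 ± 0.03), Acta1 (0.08 ± 0.09) and Actg2 (0.07 ± 0.04) were not called. Actb changed there by -0.27 ± 0.04 (limma adjusted p = 0.00066). Actb alone was higher in P than in NC by 0.27 ± 0.04 (limma adjusted p = 0.000548) and lower in P-ES10 than in P by 0.40 ± 0.04 (adjusted p = 4.11e-06).

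Cnn1 made up 35.6% ± 1.06 of the calponin FPKM in NC, 38.9% ± 1.03 in ES10, 35.2% ± 2.35 in ES50, 27.4% ± 0.672 in P, 38.2% ± 0.576 in P-ES10 and 33.6% ± 0.516 in P-ES50. Myl9 made up 34.7% ± 0.877 of the regulatory light chains in NC, 36.5% ± 1.14 in ES10, 30.4% ± 1.50 in P, 36.0% ± 1.38 in P-ES10 and 29.4% ± 1.36 in P-ES50. For both, P did not overlap with NC or with P-ES10. The Myl9 share in P-ES50 overlapped with that in P, although Myl9 itself was called higher there. In ES50, where Cnn1 and Myl9 themselves stood higher, the Cnn1 share overlapped with NC and the Myl9 share was lower, at 31.8% ± 1.12; the non-muscle copies Cnn2 (1.79 ± 0.08) and Myl12a (1.40 ± 0.07) stood higher too.

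Transgelin and tropomyosin went separate ways after 50 pulses. Tagln took 58.7% ± 0.682 of the transgelin FPKM in NC and 70.4% ± 0.0788 in ES50, but 55.5% ± 0.302 in P and 58.8% ± 0.318 in P-ES50. After 10 pulses it took 57.3% ± 0.617 in ES10, below NC without overlap, and 59.2% ± 0.235 in P-ES10. Tagln2 was higher in ES10 than in NC by 0.20 ± 0.03. Tpm1 and Tpm2 took 61.0% ± 0.13 of the tropomyosins in NC and 50.7% ± 0.923 in ES50, and 60.7% ± 0.277 in P against 55.4% ± 0.306 in P-ES50. Tpm4, a non-muscle copy, stood 1.76 ± 0.04 higher in ES50 than in NC. In no case did the groups overlap between 50 pulses and control. From reads not divided by gene length, the difference in ES50 was -5.42 percentage points for tropomyosin in place of -10.3, and 4.19 for calponin in place of -0.382. Within the 4 muscle actins, Acta2 took 80.4% ± 0.26 in NC and 85.3% ± 0.573 in ES50, Actg2 19.1% ± 0.241 and 14.3% ± 0.628, and Acta1 0.55% ± 0.0305 and 0.384% ± 0.0605; in P, Acta1 took 0.262% ± 0.0153. Over 45 such share comparisons the smallest exact permutation p is 0.1, or 0.15 after Benjamini-Hochberg adjustment, so none can pass 0.05.

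**Figure D4:**
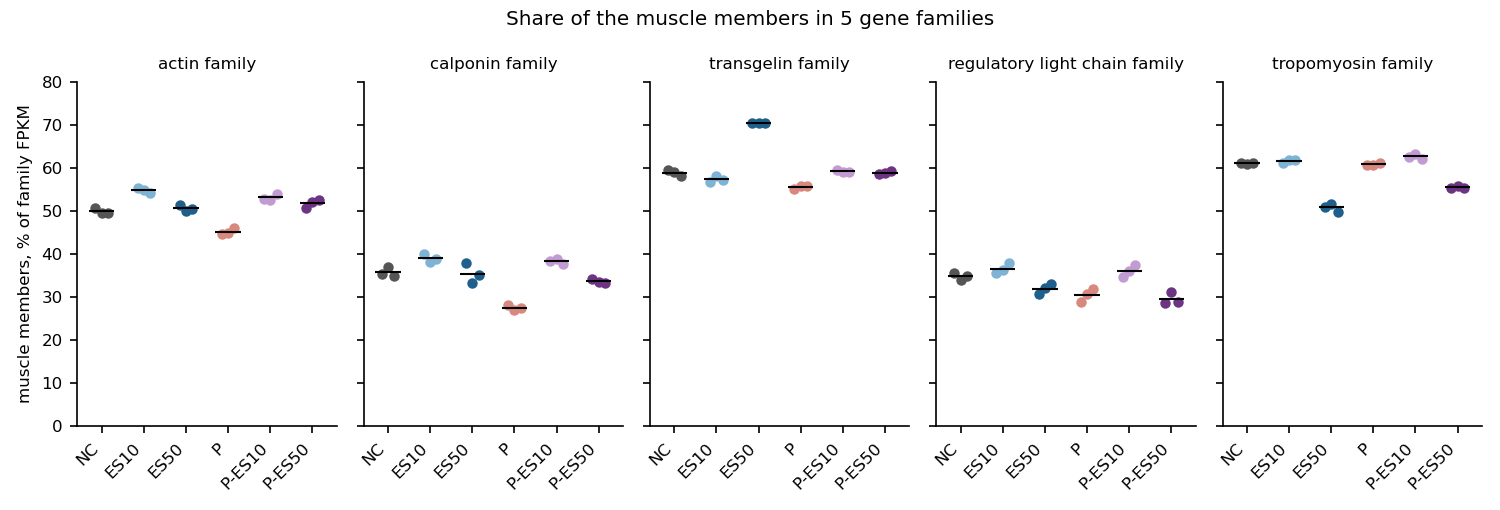
Share of the muscle members in the summed FPKM of 5 gene families (vertical axis, percent) by group (horizontal axis). Points are libraries and lines are means of 3. P lies below NC and P-ES10 in the actin, calponin, transgelin and light chain panels, and ES50 lies above NC for transgelin and below it for tropomyosin.

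Among the non-muscle paralogs, 9 of 10 tested were called higher and 1 lower in ES50 versus NC, beside 31.9% and 40.1% of all genes tested, with a median of 1.25 under the deposited scaling, among them Tpm4 (1.76 ± 0.04), Actg1 (1.30 ± 0.05) and Actb (1.19 ± 0.04). In P versus NC 3 were higher (Actg1 by 0.38 ± 0.05, Cnn2 by 0.30 ± 0.08 and Actb) and 1 lower (Cnn3, -0.15). In P-ES10 versus P 2 were higher and 3 lower, namely Actb, Actg1 (-0.23 ± 0.05) and Cnn2 (-0.28). Of all genes tested, 4.72% were called higher and 4.81% lower in P versus NC, and 13.2% and 9.66% in P-ES10 versus P. In P-ES50 versus P 5 were higher and 0 lower, beside 14.1% and 14.2% of all genes tested. In ES10 versus NC 1 was higher (Tagln2) and 1 lower (Actb), beside 6.36% and 2.21%.

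Of 12 other smooth muscle contractile genes 9 were tested. In P versus NC, where 4.81% of all genes tested were called lower and 4.72% higher, 1 was lower (Actg2, the enteric smooth muscle actin, -0.17 ± 0.04) and 1 higher (Pdlim7, a filament scaffold, 0.43 ± 0.05). In P-ES10 versus P, beside 13.2% of all genes higher and 9.66% lower, 3 were higher, Cald1 (caldesmon, 0.32 ± 0.04), Actg2 (0.29 ± 0.04) and Csrp1 (0.27 ± 0.03), and Pdlim7 was lower by 0.37 ± 0.05. In ES10 versus NC the smallest adjusted p of limma was that of Csrp1 (0.10 ± 0.03, adjusted p = 0.071). In ES50 versus NC 6 were higher and 3 lower, beside 31.9% and 40.1% of all genes tested.

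Most sarcomere genes were hardly detected: of 38 listed, 22 stayed below the filter and 13 were tested. Tnnc2, the fast troponin C, was the 1 called in P versus NC, at -0.39 ± 0.10. In P-ES10 versus P 3 were higher, Tnnc1 (cardiac and slow troponin C, 0.39 ± 0.09), Lmod3 (0.34 ± 0.09) and Neb (nebulin, 0.30 ± 0.10), and 0 lower. In ES50 versus NC 7 were higher, among them Lmod3 (1.90 ± 0.09), Tnnc1 (1.46 ± 0.09) and Des (desmin, 0.99 ± 0.09), and 3 lower. Of all genes tested, 4.72% were called higher and 4.81% lower in P versus NC. The shares were 13.2% and 9.66% in P-ES10 versus P, and 31.9% and 40.1% in ES50 versus NC. Mean FPKM in NC was 32.5 for Tnnc1 and 38.3 for Tnnc2, but 9.10 for Des, 4.50 for Lmod3 and 1.86 for Neb. The counts after 50 pulses carry the same dependence on the scaling as the members.

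Among 15 tested SRF cofactors and muscle transcription factors, Myod1, which drives skeletal muscle genes, was called in each comparison with an own control: it was 0.89 ± 0.06 higher in ES10 than in NC, 0.44 ± 0.06 lower in P than in NC, 1.24 ± 0.06 higher in P-ES10 than in P, 0.58 ± 0.06 higher in P-ES50 than in P, and 0.82 ± 0.06 higher in ES50 than in NC. Klf4, a factor known to repress smooth muscle genes, was 1.18 ± 0.21 lower in P than in NC and 1.94 ± 0.21 higher in P-ES10 than in P. Srf was higher in P than in NC by 0.29 ± 0.06 and in ES50 than in NC by 0.88 ± 0.06. It was lower in P-ES10 than in P by 0.29 ± 0.06 and in P-ES50 than in P by 0.46 ± 0.06. Mkl1 (Mrtfa), a listed SRF cofactor, changed by -1.05 ± 0.05 in ES50 versus NC under the deposited scaling (limma adjusted p = 5.82e-11). In all, 1 of the 15 was higher and 2 lower in P versus NC, beside 4.72% and 4.81% of all genes tested. In P-ES10 versus P 4 were higher and 5 lower, beside 13.2% and 9.66% of all genes tested. In ES50 versus NC 7 were higher and 5 lower, beside 31.9% and 40.1%. In P-ES50 versus P 1 was higher and 4 lower, beside 14.1% and 14.2%. The other cytoskeletal SRF targets, 11 tested, included 6 higher and 0 lower in P versus NC (Flna by 0.15 ± 0.03, Zyx by 0.20 ± 0.04), and 4 higher and 3 lower in P-ES10 versus P, where Fhl1 rose by 0.74 ± 0.03 and Zyx fell by 0.36 ± 0.04. The 6 higher in P include Srf and Cnn2, which also stand in the lists above, and 4.72% of all genes tested were called higher there.

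The summed FPKM of the skeletal muscle markers, of which 8 were found, moved with the members: it was 42.0 to 44.0 in NC, 30.7 to 35.3 in P and 65.8 to 67.1 in P-ES10, most of it Myod1, while Pax7 was at 0 in every library. It was 68.5 to 72.0 in ES10, where few members changed. The smooth muscle markers, 5 found and mostly Actg2, summed to 341 to 364 in NC, 299 to 320 in P and 371 to 384 in P-ES10. Fibroblast markers, led by collagens, summed to 2279 to 2366 in NC and 2463 to 2613 in P. They summed to 2784 to 3125 in P-ES10 and 466 to 506 in ES50. The higher sum in P-ES10 than in P came mostly from Col1a2, with a mean FPKM of 887 against 418. Within P, Col1a2 ranged from 289 to 519. Col3a1 stood at 514 in P-ES10 against 455 in P, whereas Col1a1 was lower, at 1494 against 1646. Pdgfra, Dcn and Tcf21 reached at most 0.0676, 0.132 and 0.0617 FPKM in NC. The part of these marker lists in the members' results was not tested.

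The genes most like each member, leaving out the members themselves, were found by the root mean square difference over the 18 libraries of log2(FPKM + 1) centred on the gene's mean. Tagln lay nearest to Hspb1 (0.047), Tpt1 (0.052) and Nab1 (0.061), and of such genes Myl9 also lay nearest to Hspb1 (0.089). Acta2 lay nearest to Rps25 (0.069), Rpl13 (0.073) and Pfn1 (0.074), Lmod1 to Sdpr (0.115) and Murc (0.127), and Acta1 only to genes at 0.209 or more. Among the members themselves Tagln and Tpm1 (0.077) and Tagln and Myl9 (0.086) were closest, and Acta1 and Lmod1 farthest apart (0.61). The 18 libraries share 6 groups, and the ES50 libraries weigh most in this measure.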

How the data were processed

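Each library was made from 1 µg of RNA by poly-T capture and random hexamer priming, per the labels' protocols. The submitters' processing notes name the build Rnor 6.0. For aligner, counting tool, annotation, strandedness and time of harvest, nothing is stated in the sources used here. The authors deposited FPKM per gene for 32545 genes. Multiplied by gene length, these were whole multiples of 1 value per library (100% of genes, tolerance 0.01 of a read), from which reads per gene were recovered for depth and for other scalings. The median gene is equal between libraries in the deposited values.

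Members were matched by symbol. The members and gene lists were chosen with earlier results of these data known. The filter kept genes reaching an FPKM of 1 in 3 or more libraries (11917). They were tested on the log2(FPKM + 1) scale in limma 3.58.1 and R 4.3.3 (trend, 6 group means, 18 libraries), with Benjamini-Hochberg adjustment in each of 7 contrasts and calls at an adjusted p under 0.05. Family shares were set against each other by the exact two-sided permutation test. Of each list, up to 3 tested genes with the smallest adjusted p per comparison were eligible to be named, besides the paralogs; for likeness, the 3 nearest genes. Smtn and Myot occur on 2 rows and were left out, as were listed symbols without a row. Promoters are from RefSeq (GRCr8), found for 7 of the 10 members and not for Tagln, Lmod1 and Myl9. Alternatives were the pseudocount (0.1), no filter, 3 other scalings, only the groups compared, a replicate block, leaving out each library, shares of recovered reads and, added after seeing the data, a fit without the ES50 libraries. Python 3.11.15, pandas 2.3.3, scipy 1.17.1 and matplotlib 3.10.9 served for tables and plots.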

Additional observations from a re-analysis of the deposited data

Results flagged for a closer look

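The response to 10 pulses differed between cells with and without PE, by the interaction in limma, for Cnn1 (0.46, adjusted p = 0.0144), Myl9 (0.38, adjusted p = 0.013) and Tagln (0.22, adjusted p = 0.0392), each larger with PE. These results share the NC and P libraries with P versus NC. The response to 50 pulses differed for all 9 tested members, each smaller with PE: Lmod1 (-1.82), Tnnt2 (-1.44), Tpm1 (-1.03), Acta2 (-0.99), Tagln (-0.91), Myl9 (-0.85), Tpm2 (-0.84), Cnn1 (-0.61) and Acta1 (-0.34). With total reads as the reference, the last 9 differences had the opposite sign.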

How the results depend on the processing

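Over 972 member results under alternatives, 816 kept their direction and their side of the threshold, 25 changed sign without a call in either, 82 lost and 13 gained a call, and 36 with a call turned.

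Scaling to total reads turned every member in ES50 versus NC (Acta2 -2.21, Acta1 -2.38, Tagln -2.28, Cnn1 -2.37, Lmod1 -0.69, Myl9 -2.33, Tpm1 -2.35, Tpm2 -2.69, Tnnt2 -1.66; 9 called lower), in P-ES50 versus P (Acta2 -0.56, Acta1 -0.45, Tagln -0.55, Cnn1 -0.38, Lmod1 -0.061, Myl9 -0.54, Tpm1 -0.75, Tpm2 -0.90, Tnnt2 -0.61; 8 called) and in the interaction of PE and 50 pulses (Acta2 1.65, Acta1 1.93, Tagln 1.73, Cnn1 1.99, Lmod1 0.63, Myl9 1.79, Tpm1 1.60, Tpm2 1.79, Tnnt2 1.04; 9 called). Quantile scaling turned Acta2 (-0.24), Tagln (-0.053) and Tpm2 (-0.19) in ES50 versus NC, Acta2 (-0.43), Tagln (-0.20), Tpm1 (-0.11) and Tpm2 (-0.26) in P-ES50 versus P (7 called, 4 of them lower), Tagln in ES10 versus NC (-0.033) and Tpm2 in P-ES10 versus P (-0.085), and left 4 of 9 members called in the interaction of PE and 50 pulses. In ES10 versus NC, 1 member was called without the filter, 1 with total reads and 1, lower, with nuclear reads, and 0 to 3 when 1 library was left out. In the interaction of PE and 10 pulses, 1 was called with total reads, 5 with only the groups compared, 5 without the ES50 libraries, and 1 to 3 when 1 library was left out. Without division by gene length, the tropomyosin share differences became -5.42, -0.786, 2.61 and -3.48 percentage points for ES50 versus NC, P versus NC, P-ES10 versus P and P-ES50 versus P, and the calponin ones 4.19, -6.76, 9.75 and 4.61.

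Over all genes, calls higher and lower were 758 and 263 in ES10 versus NC (920 and 761 with total reads, 356 and 620 with nuclear reads, 633 and 472 with quantiles), 3802 and 4781 in ES50 versus NC (34 and 11471 with total reads), 563 and 573 in P versus NC (2431 and 558), 1573 and 1151 in P-ES10 versus P (1521 and 2875; 1077 and 1672 with nuclear reads), 1679 and 1691 in P-ES50 versus P (90 and 10461), 67 and 41 in the interaction with 10 pulses (94 and 171) and 3706 and 3330 in that with 50 pulses (10572 and 19). With only the groups compared, calls rose from 1021 to 2246, 1136 to 2724, 2724 to 4708 and 108 to 693 in ES10 versus NC, P versus NC, P-ES10 versus P and the interaction with 10 pulses, and without the ES50 libraries to 2574, 3200, 4716 and 561, and from 3370 to 5382 in P-ES50 versus P.

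The labels do not say whether replicate numbers pair the libraries. Correlations of deviations between libraries of the same number were -0.088 to 0.101, and 9 of 30 libraries correlated best with their own number. In ES10 versus NC 6 of 6 did, with correlations of 0.101, 0.034 and 0.094, so whether the numbers pair the libraries there cannot be told. With the number as a replicate block, 2 members were called in ES10 versus NC (Tagln was lost, adjusted p = 0.0566), 6 in P-ES10 versus P and 3 in the interaction with 10 pulses. Few reads limit the precision of Acta1, Lmod1 and Tnnt2 in ES50, and Actc1 everywhere.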
